A study of Homo sapiens with 6 samples.

Results

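Transcripts of 30 genes known as targets of the tumour suppressor p53 were followed through knockdown of the histone acetyltransferase HBO1 in UWB1.289 cells. The genes came from a fixed list, and the values of all RefSeq transcripts of a gene were summed. Of the 30 listed genes, 29 reached a mean of 10 normalized counts over the 6 libraries, out of 15173 such genes in the whole data set. The exception was SPATA18, which encodes a mitochondrial quality control protein. In shCTRL replicate 3 each of its 6 transcripts was listed with the value of 1 read, which may be the same read counted for each, and the other libraries had 0. It was below the mean of 10 and was not tested.

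UWB1.289 is an established ovarian carcinoma line of human origin without functional BRCA1. Cells were transduced with a lentiviral control hairpin (shCTRL, 3 libraries) or with a hairpin against HBO1 (shHBO1, 3 libraries), in both cases with polybrene at 10 µg/mL. All were then selected with rising puromycin, from 1 to 3 µg/mL, starting at 96 h. The sources used here do not give the number of hairpins or say whether replicates were separate cultures. The p-values thus reflect only how far these libraries vary, and that variation may be technical.

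p53 is a transcription factor that is kept low by the ubiquitin ligase MDM2 and its partner MDM4, and that accumulates after DNA damage and other stress. It binds paired half-sites in DNA and switches on genes for cell cycle arrest, apoptosis, DNA repair and metabolism, among them MDM2 itself, which closes a feedback loop. Many of the same target genes are also driven by other transcription factors.

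KAT7, the gene for HBO1, checked the labels. The control libraries held 3616, 3952 and 3554 normalized counts and the shHBO1 libraries 1008, 872 and 784 (values here and below in the order of replicates 1, 2 and 3), which left 23.9% of the control mean (fold change −2.07 on the log2 scale, limma adjusted p = 0.00123). The recovered reads ran from 35940400 to 39908703 per library. All 8 ovarian and epithelial markers reached a mean of 10, although WT1 was low at a mean of 13.7. Of 10 markers of leukocytes, endothelium and fibroblasts, 6 did, and DCN was at 0. The summed level of those 10 was 1386 to 1827 in shCTRL and 1274 to 1446 in shHBO1, most of it from CDH5 and CD68, and CD3E, LUM and COL3A1 stayed under 2 in every library. In such bulk samples fewer cells of a type and less RNA per cell cannot be told apart.

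Sequences bound by p53 are made of half-sites of 10 bases around a core of the form CNNG. The canonical p53 half-site RRRCWWGYYY (R is A or G, W is A or T, Y is C or T) was searched on both strands, for which it reads alike. The search covered RefSeq promoter windows of GRCh38.p14 that span 250 bases before to 50 bases after a start. Windows were found for 25 of the 30 genes, and TNFRSF10A, TNFRSF10B, RRM2B, TP53INP1 and PHLDA3 had none. At least 1 half-site occurred in 7 of the 25 genes (28%), against 8.06% of all 27305 genes with a window. A pair of half-sites with at most 13 bases between them occurred in DDB2 alone among the 25 (4%), against 0.0366% of all genes. The matches in these 7 genes are shown as examples of the element that p53 binds, with capitals for each half-site, 5′ to 3′ on the strand of the gene.
DDB2, chr11:47214979-47214999, plus strand: GAACAAGCCCtGGGCATGTTT
FAS, chr10:88991299-88991328, plus strand: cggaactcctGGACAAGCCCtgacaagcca
AEN, chr15:88621296-88621325, plus strand: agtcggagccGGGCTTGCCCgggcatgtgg
RPS27L, chr15:63157517-63157546, minus strand: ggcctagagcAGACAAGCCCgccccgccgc
SESN1, chr6:109009018-109009047, minus strand: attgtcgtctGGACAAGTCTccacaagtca
PLK2, chr5:58460199-58460228, minus strand: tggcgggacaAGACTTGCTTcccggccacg
FDXR, chr17:74872995-74873015, minus strand: gggcaggagcGGGCTTGCCCt
A match describes the letters in the window and was not tested as a binding site in these cells.

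Between shHBO1 and shCTRL none of the 29 p53 targets passed the test. With limma on log2(normalized count + 1) and Benjamini-Hochberg adjustment over all 15173 genes, 0 rose and 0 fell at an adjusted p under 0.05, where 0.00659% of all genes (KAT7 alone) passed. With the replicate number as a block, 0 of the 29 passed again, against 0.125% of all genes, and the smallest adjusted p among them was 0.314. FAS was the only one of the 29 at an unadjusted p under 0.05 without the block, against 3.55% of all genes. With the block 7 of the 29 (24.1%) were, against 11.3% of all genes. Count tests with edgeR and DESeq2 on the recovered reads, with or without the block, also called 0 of the 29. DESeq2 with the block called 1.13% of the 13113 genes for which it gave an adjusted p. Fold changes below are shHBO1 minus shCTRL on the log2(value + 1) scale.

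The estimates lay on both sides of 0, with 14 above and 15 below, and ran from −0.44 for RRM2B to 0.26 for SESN2. Their median was −0.02, and the median of all tested genes was 0.00013. The 95% confidence interval lay within 1 log2 unit of 0 for 26 of the 29 genes, all but GDF15, TP53INP1 and BTG2, and within 0.5 for 12.

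**Figure D1:**
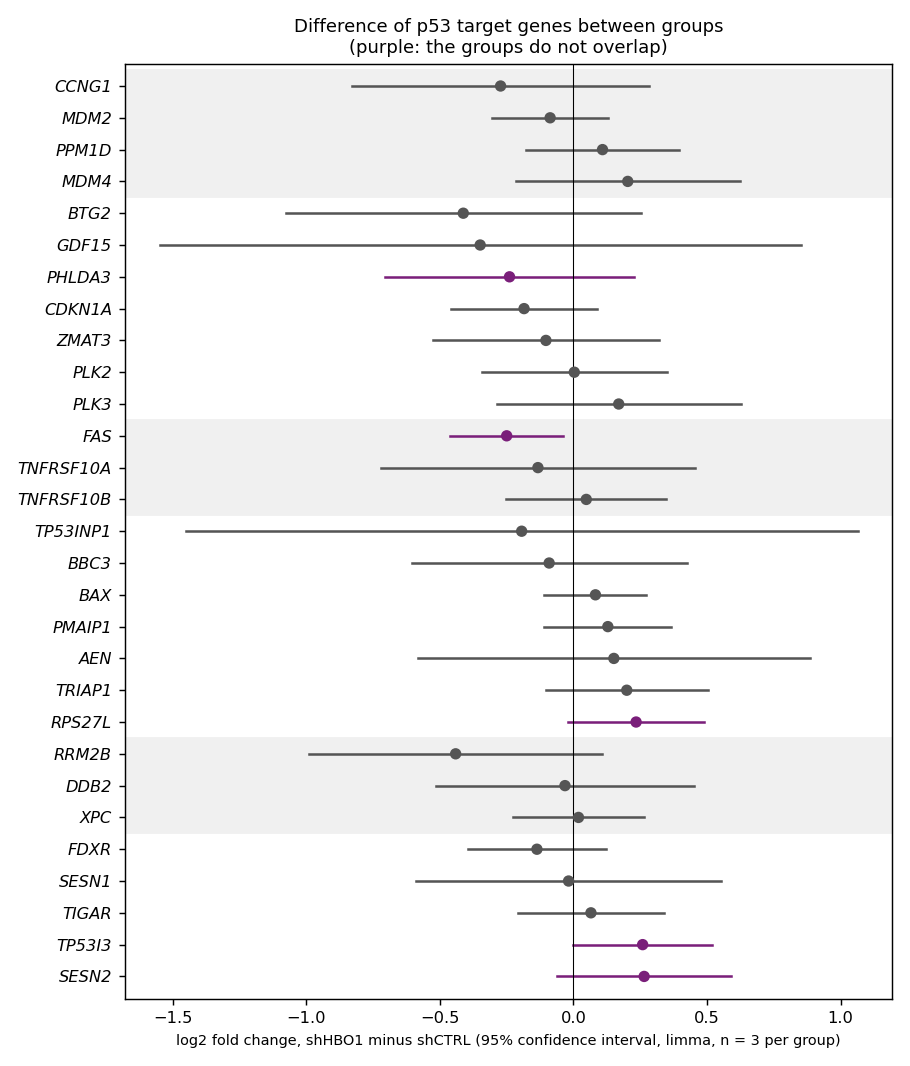
Log2 fold change of each of the 29 p53 target genes (points) with its 95% confidence interval (lines) from limma, n = 3 libraries per group, grouped by role in shaded bands. The 5 genes in purple, FAS, PHLDA3, RPS27L, TP53I3 and SESN2, had no overlap between groups. Every estimate lies between −0.44 and 0.26.

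The groups were separate, with no overlap between any libraries, for 5 of the 29 genes (17.2%) and for 8.93% of all tested genes. TP53I3, SESN2 and RPS27L lay higher (4.49% of all genes) and FAS and PHLDA3 lower (4.44% of all genes). Leaving a library out can only keep or raise this count, so a rise does not show that the count hangs on that library. Without shCTRL replicate 3 it was 15 of the 29, against 36.3% of all genes. Without shHBO1 replicate 3 it was 8 of the 29, against 18% of all genes. Without both it was 17 of the 29, against 46.6% of all genes. On the most abundant transcript of each gene it was 2, SESN2 and RPS27L, against 8.96% of all genes. The call rule was met in none of these genes, so the values that follow are descriptions of the libraries.

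The 4 regulators of p53 itself all overlapped between groups. MDM2, the ubiquitin ligase that marks p53 for degradation, had 1164, 1250.3 and 1314 normalized counts in shCTRL and 1199.8, 1235 and 1076 in shHBO1. Its groups overlapped, and the fold change was −0.09 (SE 0.09). Its interval of −0.30 to 0.13 was among the narrower ones in the list. MDM4, the MDM2 relative that masks the activation domain of p53, had 307, 297 and 236 in shCTRL and 383, 263 and 326 in shHBO1. It was highest in shHBO1 replicate 1 and lowest in shCTRL replicate 3, with a fold change of 0.20 (SE 0.18).

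Both other regulators act through phosphatases. PPM1D encodes the Wip1 phosphatase, which switches off p53 and the kinases that activate it. It had 659, 827 and 727 in shCTRL and 754, 889 and 741 in shHBO1, overlapping, and the replicate 2 library was the highest in each group. CCNG1, or cyclin G1, brings a phosphatase to MDM2. It had 4012, 3146 and 1935 in shCTRL and 2551, 2551 and 2128 in shHBO1. The shHBO1 values thus lay within the wide range of the controls, and the fold change of −0.27 had an SE of 0.24.

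Among the arrest genes, CDKN1A encodes p21, the cyclin-dependent kinase inhibitor through which p53 stops the cell cycle. It had 1054, 1213 and 1110 normalized counts in shCTRL and 891, 944 and 1147 in shHBO1. The first and the second shHBO1 library were below every control, and the third was above 2 of the 3 controls. The fold change was −0.18 (SE 0.12, interval −0.46 to 0.09).

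BTG2, an antiproliferative partner of the mRNA deadenylase complex, was a low gene with 83.3, 105 and 102 in shCTRL. In shHBO1 it had 48.6, 76.4 and 100.4, so the groups overlapped, with a fold change of −0.41 (SE 0.29). PHLDA3, an inhibitor of AKT, was also low, at 71.1, 63.7 and 64.0 in shCTRL and 55.1, 52.95 and 59.8 in shHBO1. Its groups did not overlap, although the interval of −0.70 to 0.23 around a fold change of −0.24 included 0. GDF15, a secreted stress cytokine, had 433, 256 and 92.3 in shCTRL and 239, 154 and 134 in shHBO1. The shHBO1 values lay inside the control range, which spanned 4.69-fold, and the interval of the fold change of −0.35 was wide (−1.55 to 0.85).

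The polo-like kinases PLK2 and PLK3, which act in stress and centriole control, both overlapped between groups. PLK2 had 21799, 21384 and 16458 normalized counts in shCTRL and 21702, 21878 and 16263 in shHBO1, a fold change of 0.0031 (SE 0.15). The library numbered 3 was the lowest in each group by a similar step. PLK3 had 912, 828 and 1244 in shCTRL and 967, 979 and 1412 in shHBO1, with the third library the highest in each group and a fold change of 0.17 (SE 0.20). ZMAT3, an RNA-binding protein that acts on splicing and mRNA stability, had 877, 601 and 844 in shCTRL and 778, 581 and 793 in shHBO1. Here the replicate 2 libraries were the low ones in both groups.

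**Figure D2:**
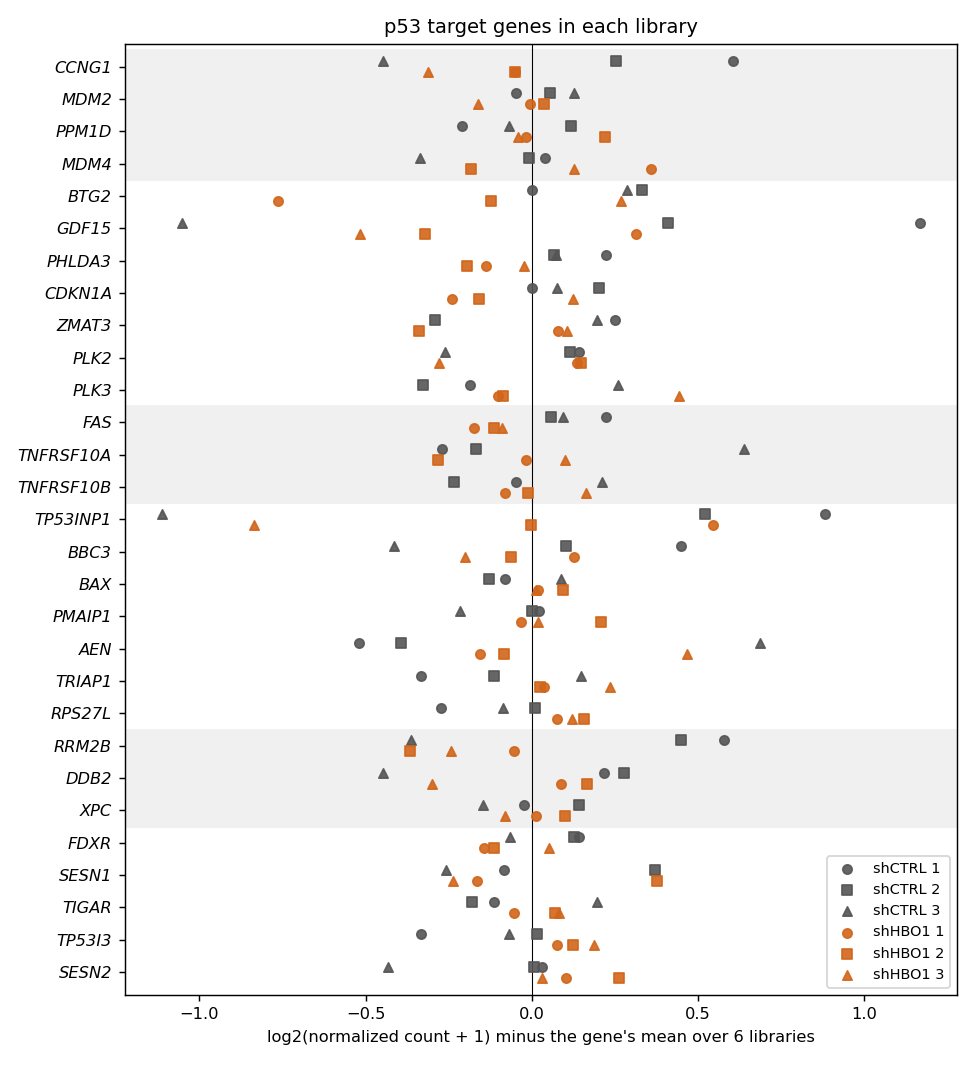
Level of each of the 29 genes in each library, as log2(normalized count + 1) minus the mean of that gene over the 6 libraries. Grey symbols are shCTRL, orange symbols shHBO1, and circles, squares and triangles are replicates 1, 2 and 3. The triangles of GDF15, TP53INP1, DDB2 and PLK2 sit to the left in both groups and those of AEN and PLK3 to the right.

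Of the 3 death receptors, FAS was the one without overlap. FAS, the receptor for FAS ligand, had 971, 865 and 887 normalized counts in shCTRL and 737, 769 and 782 in shHBO1. All 3 shHBO1 values were below all 3 controls, at 84.0% of the control mean. The fold change was −0.25 (SE 0.09, interval −0.46 to −0.04) and did not pass over all genes, with the block (limma adjusted p = 0.318) or without it. Its estimate stayed between −0.28 and −0.17 over the 19 alternative settings.

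The other death receptors bind the ligand TRAIL. TNFRSF10A had 192, 206 and 361 in shCTRL and 229, 190.4 and 248 in shHBO1, with shCTRL replicate 3 standing above the other libraries. TNFRSF10B had 1255, 1104 and 1502 in shCTRL and 1228, 1289 and 1453 in shHBO1. Both receptors overlapped between groups, with fold changes of −0.13 (SE 0.25) and 0.05 (SE 0.13), and in both the third library was the highest of its group.

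Among the other genes grouped with apoptosis, RPS27L was the one without overlap. BAX, which permeabilizes the outer membrane, had 2274, 2200 and 2554 in shCTRL and 2436, 2565 and 2426 in shHBO1, a fold change of 0.08 (SE 0.08). BBC3, which encodes the BH3-only protein PUMA, had 446, 350.3 and 244 in shCTRL and 356, 313 and 284 in shHBO1. PMAIP1, which encodes the BH3-only protein NOXA, had 1739.8, 1716 and 1477 in shCTRL and 1676, 1980 and 1736 in shHBO1. All 3 genes overlapped between groups, and their intervals included 0.

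RPS27L and TRIAP1, both small proteins tied to survival after damage, had estimates above 0. RPS27L had 502, 611 and 570.5 normalized counts in shCTRL and 639, 676 and 659 in shHBO1, without overlap, at 117% of the control mean. Its fold change was 0.23 (SE 0.11, interval −0.02 to 0.49; blocked limma adjusted p = 0.377). RPS27L is a close paralog of the ribosomal protein gene RPS27, and reads shared between them could not be separated. TRIAP1 had 1526, 1779 and 2131 in shCTRL and 1974, 1958 and 2266 in shHBO1, overlapping only through shCTRL replicate 3, with a fold change of 0.20 (SE 0.13).

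AEN, a nuclease that takes part in DNA fragmentation, had 1427, 1557 and 3287 in shCTRL and 1834, 1929 and 2826 in shHBO1. Its highest and its lowest value were both in control libraries. TP53INP1, a stress protein of autophagy and apoptosis, had 358, 278 and 89.1 in shCTRL and 283, 193 and 108 in shHBO1, again inside the control range. The fold changes were 0.15 (SE 0.32) for AEN and −0.19 (SE 0.54) for TP53INP1, the latter the largest SE among the 29 genes.

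In DNA repair, XPC and DDB2 encode the damage sensors of nucleotide excision repair. XPC had 922, 1034 and 847 in shCTRL and 945, 1004 and 886 in shHBO1, a fold change of 0.02 (SE 0.11). DDB2, the gene with the paired half-sites printed above, had 1706, 1781 and 1078 in shCTRL and 1560.5, 1647 and 1194 in shHBO1. The groups overlapped, the fold change was −0.03 (SE 0.21), and the third library was the lowest in both groups.

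RRM2B had the lowest estimate of the list. It encodes the p53-inducible subunit of ribonucleotide reductase, which supplies nucleotides for repair. It had 1287, 1176 and 669 in shCTRL and 829.8, 669 and 729 in shHBO1. The first and the second control were above every shHBO1 library, while shCTRL replicate 3 lay at the bottom of the shHBO1 range. The fold change of −0.44 (SE 0.24, interval −0.99 to 0.11) did not pass, and it moved to −0.73 without shCTRL replicate 3 (limma adjusted p = 0.186), a shift of over 1.5 times. The same library moved the estimates of GDF15 to −0.96, TP53INP1 to −0.80, CCNG1 to −0.56 and AEN to 0.53 when it was left out, and none of these passed.

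The metabolic and redox targets held the other genes without overlap. SESN2, a sestrin that restrains mTORC1 and limits peroxides, had 1146, 1127 and 832 in shCTRL and 1204, 1347 and 1147 in shHBO1. The gap was narrow, since the lowest shHBO1 value of 1147 lay beside the highest control of 1146. Its fold change was 0.26 (SE 0.14, interval −0.06 to 0.59; blocked limma adjusted p = 0.325). TP53I3, a quinone oxidoreductase, had 741, 944 and 891 in shCTRL and 986, 1019 and 1064 in shHBO1, at 119% of the control mean. Its fold change was also 0.26 (SE 0.11), with an interval of −0.0011 to 0.52 and the smallest blocked adjusted p of the list (limma adjusted p = 0.314).

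SESN1 is the paralog of SESN2. It had 114, 156 and 101 in shCTRL and 107, 157 and 102 in shHBO1, similar within each replicate number, with a fold change of −0.02 (SE 0.25). TIGAR, a phosphatase that lowers glycolytic flux, had 945, 901 and 1169 in shCTRL and 985, 1071 and 1081 in shHBO1. FDXR, which passes electrons to mitochondrial cytochromes P450, had 673, 667 and 583 in shCTRL and 552, 564 and 632 in shHBO1. TIGAR (0.07, SE 0.12) and FDXR (−0.14, SE 0.11) overlapped between groups.

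For several p53 targets the level differed by replicate number, in a fit that takes this difference as shared by both groups. The replicate number was tested in the fit with both group and number, with limma's F-test over all 15173 genes. It differed at an adjusted p under 0.05 for 7 of the 29 genes (24.1%), against 9.68% of all genes. These were TP53INP1 (adjusted p = 0.00833), AEN (0.0116), PLK2 (0.0135), DDB2 (0.0156), PLK3 (0.0156), ZMAT3 (0.0283) and GDF15 (0.0452). Among them GDF15, TP53INP1, DDB2 and PLK2 were lower in number 3 than in number 1, by a fitted difference of −1.52, −1.69, −0.52 and −0.41 on the log2 scale. AEN (0.91) and PLK3 (0.50) were higher, and ZMAT3 differed through number 2 (−0.48 against number 1). When the most abundant transcript stood in for the gene, 0 of the 29 and 0.087% of all genes passed this test.

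The differences between replicates 3 and 1 within each group describe these genes, which were picked for a difference shared by both groups. For GDF15 the difference was −2.22 in shCTRL and −0.83 in shHBO1, and for TP53INP1 it was −1.99 and −1.38. AEN had 1.203 and 0.62, DDB2 had −0.66 and −0.39, PLK2 had −0.41 and −0.42, and PLK3 had 0.45 and 0.55. The number 3 libraries were the lowest of both groups for 9 of the 29 genes and the highest of both for 6, against 24.5% and 26.5% of all genes. The spread between log2 values was larger in shCTRL than in shHBO1 for 22 of the 29 genes (75.9%), against 64.3% of all tested genes. Over all tested genes the first principal component (44.4% of the variance) placed both number 3 libraries away from the other libraries. Among the ovarian and epithelial markers PAX8, KRT19, MSLN and MUC16 also differed between replicate numbers, each lower in number 3 than in number 1, and their part in these differences was not tested. The labels name no day or batch, so what the numbers share was not tested.

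**Figure D3:**
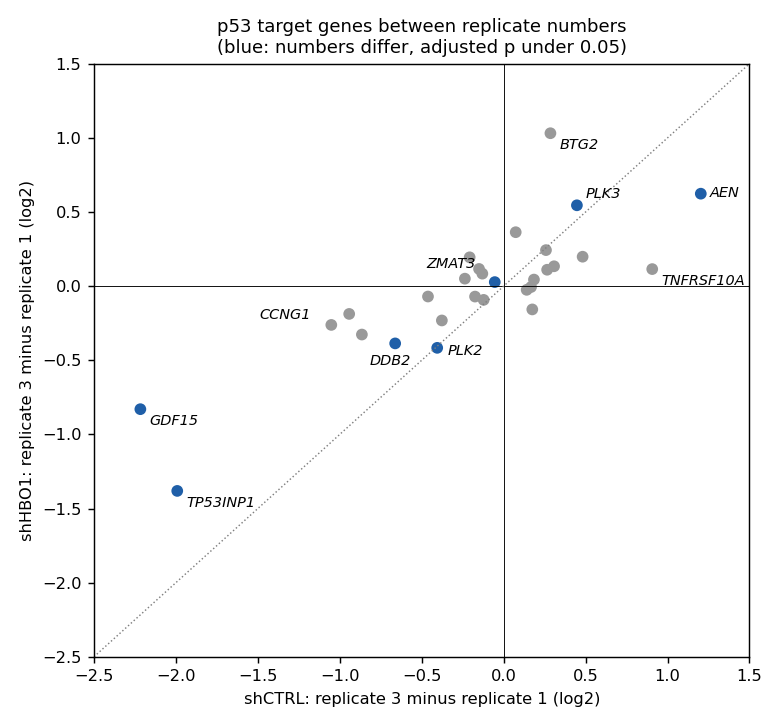
Difference between replicate 3 and replicate 1 on the log2 scale, in shCTRL (horizontal axis) and in shHBO1 (vertical axis), for the 29 genes. Blue points are the 7 genes that differed between numbers, and the dotted line marks equal differences. GDF15 and TP53INP1 lie far to the lower left in both groups, and AEN lies to the upper right.

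Differences within the numbered pairs also turned. Pairs 1 and 2 went one way and pair 3 the other in 11 of the 29 genes (37.9%), close to the 36% of all tested genes. In 8 of these 11 genes shHBO1 was lower in pairs 1 and 2 and higher in pair 3, and 3 went the other way. Of 5456 such genes among all tested genes, 2475 went as these 8 did and 2981 the other way. The 11 genes were measured in the same libraries and are not independent, and their balance was not tested. RRM2B had −0.63, −0.81 and 0.12 in pairs 1, 2 and 3, CCNG1 had −0.65, −0.30 and 0.14, and GDF15 had −0.85, −0.73 and 0.53. All 3 pairs went one way in 10 genes (34.5%), against 32.4% of all genes. FAS had −0.40, −0.17 and −0.18, TP53I3 had 0.41, 0.11 and 0.26, and RPS27L had 0.35, 0.15 and 0.21. The median of the 29 genes was −0.03, −0.04 and 0.06 in the 3 pairs.

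Single RefSeq transcripts of these genes could swing widely between libraries of 1 group. At least 2 transcripts with a mean of 50 or more were present for 13 of the 29 genes. For MDM2 the most abundant transcript, NM_002392, had 567, 802 and 912 normalized counts in shCTRL and 1033, 853 and 959 in shHBO1, overlapping through shCTRL replicate 3 and shHBO1 replicate 2. NM_001145337 of the same gene had 261, 291 and 230 in shCTRL and 57.9, 332 and 76.2 in shHBO1, with shHBO1 replicate 2 the highest of all. The BAX transcript NM_001291431 had 11.2 in shCTRL replicate 1 and between 126 and 207 in the other 5 libraries. For PLK2, NM_001252226 had 3049, 1887 and 94.4 in shCTRL and 2659, 926 and 648 in shHBO1, while its main transcript NM_006622 had 18750.0, 19497 and 16364 in shCTRL and 19042, 20952 and 15614 in shHBO1. The sources used here do not say how reads were divided between transcripts.

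**Figure D4:**
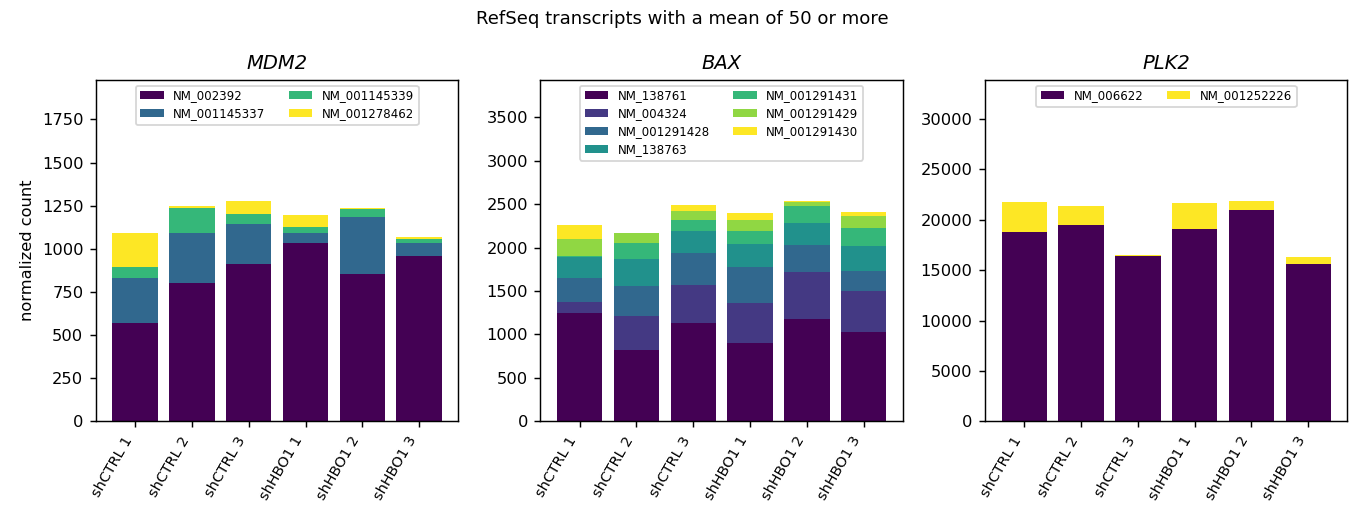
Normalized counts of the RefSeq transcripts with a mean of 50 or more for MDM2, BAX and PLK2, stacked for each of the 6 libraries. NM_001145337 of MDM2 runs from 57.9 to 332 within shHBO1, and NM_001252226 of PLK2 from 94.4 to 3049 within shCTRL.

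Minor transcripts of DDB2 and TP53I3 are given as further examples. The DDB2 transcript NM_001300734, 7.26% of the gene, had 81.3, 75.9 and 87.0 in shCTRL and 123, 148 and 136 in shHBO1, without overlap. Single transcripts of the 29 genes were looked at after their values were seen, and this one was picked for its separation. It was not alone. RRM2B NM_001172477 had 303, 341 and 243 in shCTRL and 199, 116 and 148 in shHBO1. MDM2 NM_001145339, also lower, had 68.0, 146 and 60.8 against 37.4, 47.9 and 18.3. BAX NM_004324 lay higher, with 130, 391 and 437 in shCTRL and 461, 544 and 479 in shHBO1. The share of all transcripts without overlap was not counted. The TP53I3 transcript NM_004881 had 220.4, 240 and 125 in shCTRL and 271, 231 and 274 in shHBO1, overlapping through shCTRL replicate 2.

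Further genes of the pathway came from lists. Of 30 tested among 33 further p53 targets, 0 rose and 0 fell over all genes, with or without the block, and their median fold change was −0.03. RAP2B, a RAS-like GTPase, had the smallest p of that list. It averaged 3276 ± 315 normalized counts in shCTRL and 3982 ± 168 in shHBO1 (SD, n = 3), a fold change of 0.29 (SE 0.09) with no overlap. No other gene of this list lacked overlap, a share of 3.33% against 8.93% of all genes. PIDD1, a death domain protein of the caspase-activating PIDDosome, had −0.21 (SE 0.12). In this list 3 genes (10%) differed between replicate numbers, near the share in all genes.

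Of 22 kinases, acetyltransferases, ligases and other regulators or relatives of p53, 21 were tested and 0 rose or fell, with a median of 0.01. The acetyltransferase KAT8, which can acetylate p53, averaged 1493 ± 66.4 in shCTRL and 1303 ± 106 in shHBO1 (SD, n = 3), with a fold change of −0.20 (SE 0.09) and no overlap. In this list 1 gene lay lower and 1 higher without overlap (9.52%), near the 8.93% of all genes. The higher one was CREBBP, with a fold change of 0.18 (SE 0.10). The checkpoint kinase CHEK2, which phosphorylates p53 after DNA breaks, had −0.23 (SE 0.11) and overlapped. Of 17 cell cycle genes that p21 represses through the DREAM complex, 0 rose or fell and the median was −0.01. BIRC5, the mitotic survivin, had 0.18 (SE 0.10) and CHEK1 had 0.09 (SE 0.08). The DREAM targets had 4 genes (23.5%) that differed between replicate numbers, against 9.68% of all genes. Each was lower in number 3 than in number 1, by a fitted difference between −0.23 and −0.10. Number 2 was higher than number 1 in each of them, by 0.08 to 0.21.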

How the data were processed

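RNA-seq was measured in 6 UWB1.289 libraries, 3 shCTRL and 3 shHBO1, grouped by their titles. Normalized signal for 58215 RefSeq transcripts was deposited by the authors in 1 table. The submitters' processing notes name Bowtie 1.2.1.1, SAMtools, DESeq2 and hg19 but no roles. Each deposited value was a whole read count times 1 factor per library: division by the factor gave whole reads for 100% of values at a tolerance of 0.01 read. Names came from RefSeq of GRCh38.p14 (57191 accessions) and GENCODE (646), and 378 unnamed accessions were left out. Transcript values were summed per gene. Reads counted for several transcripts would enter a sum more than once, and reads of overlapping or antisense genes could not be separated.

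The test was limma-trend (limma 3.58.1, R 4.3.3) on log2(value + 1), for genes whose mean reached 10. P-values were adjusted by the Benjamini-Hochberg method and called under 0.05. edgeR 4.0.16 and DESeq2 1.42.0 on the recovered reads, a replicate block, other filters, pseudocounts and scalings, the most abundant transcript, and libraries left out were alternatives. In a simulation with 15173 genes and 3 against 3 libraries, limma recovered 73 of 100 genes changed by 1 log2 unit and 92 of 100 changed by 2, with 12 false calls. The simulated counts had no effect of replicate number and held more changed genes than passed in the data. Changes under 1 log2 unit were not simulated. The recovery thus does not give the power for differences as small as those of the p53 targets. Same-numbered libraries deviated together (correlations across genes 0.32, 0.19 and 0.48), so the numbers were taken to pair them. The labels name no shared batch, and shCTRL replicate 2 correlated slightly more with shHBO1 replicate 1 (0.21) than with its own number. Deviations were taken from the mean of each group of 3, so the correlations depend on each other. A deviation shared by the number 3 libraries also raises those among numbers 1 and 2. The block and the test of replicate number thus rest on a pairing inferred from these same data.

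The members and lists were chosen with earlier results of these data known. All listed members are named, and of other lists those past the threshold and the 2 with the smallest p. CREBBP was added because, with KAT8, it lacked overlap in its list. A gene that the rule would add is not reported here.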

Additional observations from a re-analysis of the deposited data

How the results depend on the processing

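None of the 29 p53 targets passed the threshold in any of the 19 alternative settings, and the lowest adjusted p of any of them was 0.127 (RRM2B, limma without both number 3 libraries). KAT7 passed in each setting. Over all genes 1 passed without a block in limma and edgeR, 19 in DESeq2, 19 with the replicate block in limma, 19 in edgeR with the replicate block and 148 in DESeq2 with the replicate block. The count of p53 targets without overlap was 5 in the main setting and 2 on the most abundant transcript. With each library left out in turn it was 5 to 15 (15 without shCTRL replicate 3, 8 without shHBO1 replicate 3). It was 17 without both number 3 libraries (46.6% of all genes). With fewer libraries this count can only stay or rise. The median fold change ran from −0.064 to 0.031 with each library left out, the latter without shCTRL replicate 1. The 7 genes that differed between replicate numbers were 0 on the most abundant transcript. For these shifts the cause was not tested. The sign of the fold change was the same in all settings for 14 of the 29 genes, among them CDKN1A, FAS, RRM2B, TP53I3, SESN2 and RPS27L, and turned in at least 1 setting for the other 15. The replicate block changed no call of a p53 target, and 0 passed with it. PHLDA3 and BTG2 had the lowest means of the 29 genes, 61.1 and 85.9 normalized counts, and so rest on the fewest reads.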
